A study of Mus musculus with 6 samples.

Results

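Gene signals in the heart ventricle of wild-type mouse embryos at stage E11.5 are described from 3 arrays, named here wild-type 13, wild-type 23 and wild-type 57. Every probe set that the array annotation ties to a single gene symbol was used after the control probe sets were dropped, and each gene was represented by its brightest probe set, ranked on the mean of log2(signal + 16) over the 3 arrays. That gave 18193 genes from 34945 of the 45101 probe sets on the array, an Affymetrix mouse 430 2.0 design. No genotype comparison is made. The study set these embryos, of the 129SvEv strain, beside 3 littermate ventricles from embryos with a targeted deletion of skNAC, a muscle-specific product of the Naca gene. Per the labels the deletion kills the embryo by E12.5. The knockout arrays, numbered 1, 26 and 66, serve here only as 3 further arrays on which an order of genes can be read. From each ventricle sample 500 ng of total RNA was amplified and biotin-labelled. The labels do not say whether an array held 1 heart or several, or which sex the embryos were, so the spread between arrays may be biological or technical.

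At this stage the ventricle is a thin wall of dividing cardiomyocytes lined by trabeculae, with endocardium inside, a new epicardium outside and red cells from the yolk sac in its lumen. The contractile unit, the sarcomere, is built from thick filaments of myosin heavy and light chains and thin filaments of actin, tropomyosin and troponin. Most of these proteins come in several gene-encoded forms, of which embryonic, slow, fast, atrial, ventricular and smooth muscle forms are used in different muscles and stages.

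The unit throughout is the MAS5 signal, a probe set's brightness on a linear scale after each array was scaled to a 2% trimmed mean of 250. Array medians over all probe sets were 95, 101.3 and 111.3 in wild-type 13, 23 and 57. Probe sets differ in how brightly they report the same RNA. For the 4924 genes above the level defined next that have several probe sets, the brightest exceeded the next by a median of 2.63-fold and, at the 90th percentile, by 11.4-fold. An order or a ratio of genes below is therefore one of signals, not of transcript numbers, and no test is given for it. Signals carry no scaling by transcript length.

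As a mark for genes with little or no transcript, the 95th percentile of 77 olfactory, vomeronasal and taste receptor genes was taken, genes that act in sensory tissue. It lay at a signal of 259, while the median of those genes was 54.3. This value is called the silent level below. Above it lay 7013 of 18193 genes, or 38.5%, and 6422 were above it on each of the 3 arrays. Where each gene's probe sets are averaged below, the level was taken anew from the averaged receptor genes. The median gene had a signal of 167. Across genes the log2 signals of any 2 wild-type arrays correlated with a Pearson coefficient of 0.962 to 0.966, given as a description since genes are not replicates. The median SD over the 3 arrays was 0.13 on the log2 scale for genes above the silent level and 0.30 for the others.

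**Figure D1:**
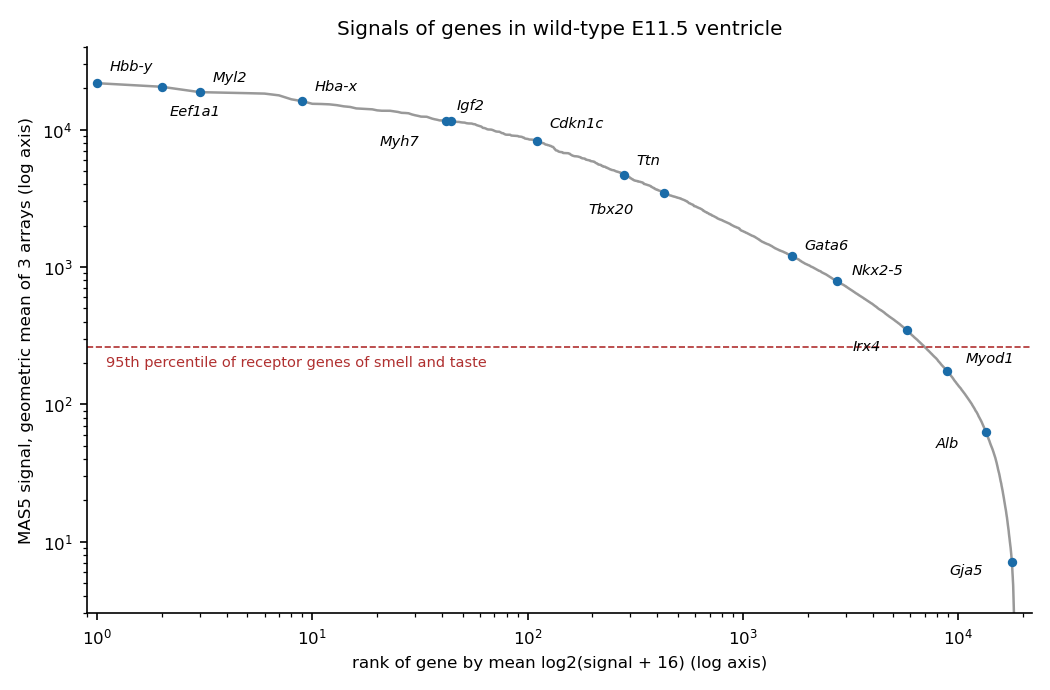
Each gene's MAS5 signal (geometric mean of the 3 wild-type arrays, log axis) against its rank among 18193 genes (log axis), with 15 genes marked. The dashed line is the silent level of 259, and the curve crosses it after 7013 genes.

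The brightest genes were globins, translation genes and sarcomere genes. Hbb-y, the embryonic beta-type globin of primitive red cells, led with signals of 23296, 20531 and 21680 in wild-type 13, 23 and 57. Eef1a1, which brings aminoacyl-tRNA to the ribosome, followed at 20498, 21194 and 19912. Myl2, the ventricular regulatory myosin light chain, was the brightest sarcomere gene at 18982, 19160 and 18174. The first 30 places were filled out by Uqcrb, Actc1, Tpt1, Rpl41, Syt11, Hba-x, Myl4, Hbb-bh1, Tmsb10, Myl3, Pebp1, Rps3a1, Rps29, Tmsb4x, Rplp2, Rps3, Rps2, Rpl38, Acta2, Atp5g3, Myl7, Rps28, Rpl4, Rps7, Tnnc1, Rpl7a and Rps14. The 10 brightest genes held 1.94 ± 0.0354% of the summed signal of all genes (mean ± SD, n = 3), the 100 brightest 12.6 ± 0.280% and the 1000 brightest 46.1 ± 1.24%. The 100 brightest were nearly the same set on each array, since 87 genes were among them in all 3. The 100th gene had a signal of 8579 and the 1000th a signal of 1830.

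Ribosomal protein genes held 29 of the 100 first places, and 45 of the 49 measured were above the silent level. The respiratory chain and ATP synthase are the protein complexes that make most of a muscle cell's ATP. Their genes, taken by the symbols Nduf, Sdh, Uqcr, Cox and Atp5, held 10 places, with 75 of 81 above the level. ND5 at rank 32 and Cycs at rank 37 have other symbols and were not counted. The 8 contractile families described below held 16 places through 67 measured genes, of which 46 were above the level. No mitochondrial ribosomal protein gene was among the 100 brightest, yet all 76 were above the level, with a median signal of 993. Zinc finger genes with Zfp symbols lay at the other end, with 94 of 336 above the level, or 28.0%, beside 38.5% of all genes. The 100 brightest genes spanned a median of 4.76 kb in the RefSeq gene table and all 18028 matched genes a median of 20.3 kb. Within the 100 brightest, the median was 3.95 kb for the 29 ribosomal protein genes, 15.6 kb for the 16 contractile genes and 5.25 kb for the other 55. Brighter genes were not shorter throughout, since genes above the silent level spanned a median of 25.8 kb and the others 17.3 kb.

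Part of these places rest on probe sets marked as shared between transcripts. Of the 100 brightest genes, 39 were reported by a probe set whose name ends in _x_at or _s_at, the manufacturer's marks for shared probes, beside 8.90% of all genes. Hbb-y led through such a probe set, and the probe set of Hbb-y without that mark read 12946 ± 420, below Hba-x. Syt11, a synaptotagmin of vesicle traffic, stood eighth through such a probe set at 14654, 17895 and 17552, while its 4 other probe sets had mean signals of 250 or lower. Plagl1, an imprinted zinc finger gene, stood 47th with 11398 ± 427 on one probe set and 657 ± 67.6 on the next. In all, 10 of the 60 brightest genes had their next probe set more than 10-fold lower, among them Tpt1, Myl4, Acta2, Igf2 and Grb10.

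The 16 contractile genes among the 100 brightest were Myl2, Actc1, Myl4, Myl3, Acta2, Myl7, Tnnc1, Tnnt2, Myh7, Tnni1, Actg1, Tpm1, Myh6, Csrp3, Actb and Myl9. Their promoters were read from the RefSeq promoter table, 300 bases per start site from 250 before to 50 after it, to see which carry a CArG box, the 10-base element that serum response factor binds in muscle and growth-response genes. Only exact matches to CCWWWWWWGG, where W is A or T, were counted. The near match ccttgtttgg upstream of Acta2, with a G at a W position, was therefore left out. Of the 15 genes with an entry, 5 carried an exact match: Actc1, Myl3, Myl7, Actg1 and Myl9. The stretches that hold it are shown because these are the starts of 3 of the brightest cardiac genes and of 2 actin and myosin genes of non-muscle and smooth muscle cells. Each runs 5′ to 3′ along the gene's own strand and ends upstream of the start, and the capitals mark the CArG box.
Actc1: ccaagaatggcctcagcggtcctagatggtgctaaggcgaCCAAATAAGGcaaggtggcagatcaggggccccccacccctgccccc
Myl3: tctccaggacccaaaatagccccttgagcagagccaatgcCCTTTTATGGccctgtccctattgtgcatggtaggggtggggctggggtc
Myl7: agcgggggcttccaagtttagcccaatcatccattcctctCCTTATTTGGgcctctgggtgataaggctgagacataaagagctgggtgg
Actg1: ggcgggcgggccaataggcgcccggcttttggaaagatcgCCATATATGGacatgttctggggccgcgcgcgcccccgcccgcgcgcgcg
Myl9: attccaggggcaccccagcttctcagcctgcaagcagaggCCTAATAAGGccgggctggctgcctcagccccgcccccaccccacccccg

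On assembly GRCm38.p6 the Actc1 stretch is chr2:114052876-114052962 on the minus strand, with the box beginning 47 bases before the start site. The Myl3 stretch is chr9:110763553-110763642 on the plus strand, with the box beginning 85 bases before the start. The Myl7 stretch is chr11:5898794-5898883 on the minus strand, with the box 61 bases before the start. The Actg1 stretch is chr11:120348536-120348625 on the minus strand, with the box 90 bases before the start. The Myl9 stretch is chr2:156775263-156775352 on the plus strand, with the box 161 bases before the start.

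Over all 46 contractile genes above the silent level, 41 had a promoter entry and 11 of their 53 promoters held a CArG box on either strand, or 20.8%. The genes were Actc1, Myl3, Myl7, Actg1, Myl9, Nebl, Acta1, Ldb3 with both its promoters, Myom1 and Myl6. In the whole table, 1.63% of 32851 promoters held one. The share was 1.48% in the promoters of all genes above the silent level, 6.42% in those of the 100 brightest and 1.96% in those of ribosomal protein genes. Outside the contractile families, Igf2 and Rpl10a were the carriers among the 100 brightest. Myl2, Myh6, Myh7 and Tnnt2 held none in these windows. The E-box CAGCTG, a hexamer that basic helix-loop-helix factors bind, was found on either strand in 35.8% of the contractile promoters and in 16.3% of the whole table, and both promoters of Myl2 and both of Tnni1 held it. The GC box GGGCGG, bound by SP factors, was found on either strand in 37.7% of the contractile promoters, 35.7% of the table and 65.8% of the promoters of genes above the silent level. The motif TATAAA, read on the gene's strand from 40 to 20 bases before the start, was in 1 promoter of the 100 brightest genes, that of Hba-x. The motifs were searched one by one and may overlap, and a match does not show that a factor binds there.

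**Figure D2:**
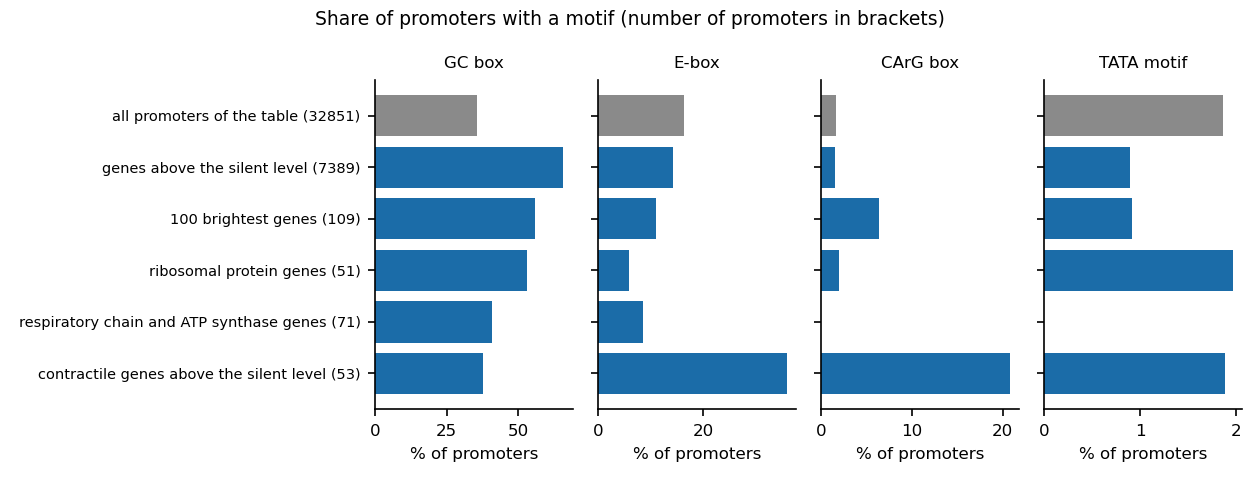
Share of promoters (percent, each axis from 0) that hold 4 motifs in the RefSeq promoter table and in 5 groups of genes. CArG boxes were in 20.8% and E-boxes in 35.8% of the contractile promoters, beside 1.63% and 16.3% of the table in grey.

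Both cardiac myosin heavy chains were bright. Myh7, the slow beta chain that marks the embryonic ventricle in mice, had signals of 12921, 11056 and 10818 in wild-type 13, 23 and 57. Myh6, the fast alpha chain of the atrium and of the adult mouse ventricle, had signals of 9526, 9619 and 8534. Myh7 was the brighter on each array, and the log2 ratio was 0.33 ± 0.12 (SD, n = 3), or 1.25-fold, under the 2.63-fold median gap between probe sets of the same gene. It became 3.78 when each gene's probe sets were averaged, because the second Myh6 probe set read 63.7 ± 25.8, so their near parity rests on the brighter Myh6 probe set. Myh10 and Myh9, non-muscle chains of dividing cells, followed at 5575 ± 522 and 1488 ± 16. The skeletal chains Myh1, Myh2, Myh3, Myh4 and Myh8, the smooth muscle chain Myh11, and Myh7b and Myh14 lay below the silent level at 6.5 to 225.

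The regulatory light chains included an atrial form beside the ventricular one. Myl7, the atrial chain, had signals of 13833, 13820 and 13149, and Myl2 exceeded it by the same log2 ratio on each array, 0.46, 0.47 and 0.47. This was the steadiest of the ratios, at 1.38-fold, and each gene had only 1 probe set. Of the essential light chains, Myl3, the ventricular and slow muscle form, had signals of 15800, 14902 and 14575, and Myl4, the atrial and embryonic form, had 15668, 15935 and 14724. Their order changed between arrays, with log2 ratios of 0.01, -0.10 and -0.01. Averaging each gene's probe sets instead gave 2.47, because the second Myl4 probe set read 241 ± 5.02. The fast skeletal chain Myl1 lay 11.3-fold below Myl3, at 1341 ± 267, and the log2 ratio of Myl3 to Myl1 was 2.76 without _x_at and _s_at probe sets.

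Among troponins, which couple calcium to contraction, the cardiac and slow forms led. Tnnc1, the calcium-binding subunit of heart and slow muscle, had signals of 13357, 14143 and 12076, whereas its fast counterpart Tnnc2 was at 7.47 on average. Tnnt2, the cardiac tropomyosin-binding subunit, had signals of 12196, 12083 and 10820 and exceeded the slow form Tnnt1 by 12.1-fold, with a log2 ratio of 3.60 ± 0.11. Averaging the probe sets gave 1.61, since the third Tnnt2 probe set read 193 ± 46.3. Tnni1, the slow inhibitory subunit of the fetal heart, had 10266, 10529 and 9426. Tnni3, the form of the adult heart, had 4477, 5173 and 3411. Tnni1 was above Tnni3 on every array, by a log2 ratio of 1.23 ± 0.22 or 2.34-fold. Tnni2, the fast inhibitory subunit, was at 740 ± 88.9, and Tnnt3 lay below the silent level.

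All actins but the enteric Actg2 were above the silent level. Actc1, the cardiac alpha-actin, had signals of 18517, 19164 and 17672. The smooth muscle form Acta2, which the early heart also makes, had 13364, 14618 and 13247, and the ratio of Actc1 to it was 1.34-fold, or 0.43 on the log2 scale. The bright Acta2 probe set is of the _s_at kind, and the log2 ratio was 5.51 with probe sets averaged and 7.83 without it. The skeletal form Acta1 had 2686, 2728 and 2516, 6.95-fold below Actc1, with a log2 ratio of 2.80 ± 0.016. The cytoplasmic actins Actg1 and Actb were at 10005 ± 399 and 8645 ± 563. Tpm1 led the tropomyosins at 9625 ± 1473, above Tpm3, Tpm4 and Tpm2, but its other 3 probe sets read 686 to 920. With the mean of each gene's probe sets, the Tpm1 to Tpm4 log2 ratio of 1.93 ± 0.16 became -0.79.

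Of the giant and linking proteins, Mybpc3, the cardiac myosin-binding protein C, was at 6414 ± 552, Ttn at 4680 ± 91.7 and Myom1 of the M-band at 2349 ± 161. The slow and fast forms Mybpc1 and Mybpc2 lay below the silent level. At the Z-disc Csrp3, a LIM protein that senses stretch, was brightest at 9076 ± 1050, and the cardiac nebulette Nebl was at 3677 ± 177 while the skeletal nebulin Neb was at 3.53. Vim, the intermediate filament of mesenchyme, was 7.76-fold brighter than the muscle filament Des, whose signals were 1125, 998 and 641. That log2 ratio of 2.96 was 3.997 with probe sets averaged. Nppa, the atrial natriuretic peptide, had 12841, 11623 and 10406, and Nppb had 5460, 5406 and 3717, a log2 ratio of 1.27 ± 0.19.

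The calcium stores were led by the cardiac pump on the brightest probe sets, but by Pln with each gene's probe sets averaged. Atp2a2, which fills the sarcoplasmic reticulum with calcium, had signals of 11058, 11023 and 10860, and its inhibitor Pln had 5610, 5638 and 4896. Sln, the inhibitor made in atria, lay below the silent level at 85.4. Casq1, the calsequestrin of skeletal muscle, had signals of 2324, 2281 and 2482, and Casq2, the cardiac form, had 297, 283 and 306. Casq1 was thus 7.64-fold the brighter, with a log2 ratio of Casq2 to Casq1 of -2.93 ± 0.026, though each gene had only 1 probe set. Ryr2, the cardiac release channel, was at 988 ± 156, and the other release channels Ryr1 and Ryr3 were below the silent level.

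Genes of ion transport across the membrane spanned a wide range. Slc8a1, the sodium-calcium exchanger, was at 1204 ± 198 and Cacna1c, the pore of the cardiac L-type calcium channel, at 346 ± 43.2. Cacna2d2, an auxiliary calcium channel subunit, was brighter at 1160 ± 58.2, and 5 of 9 measured calcium channel genes were above the silent level. Of potassium channels, Kcnj11 was brightest at 797 ± 47.6 and 5 of 11 measured were above the level, beside 38.5% of all genes. With each gene's probe sets averaged, no calcium channel gene was above the silent level and Kcnh2 led the potassium channels. None of 3 measured sodium channel genes and neither measured pacemaker channel gene was above it. Among connexins, which couple cardiomyocytes electrically, Gja1 was at 3513 ± 266 and Gjc1 at 1230 ± 17.8. Gja5, a connexin of trabeculae and the conduction system, read 7.90, 6.30 and 7.10 on its 1 probe set.

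The embryonic globins were far above the adult ones under the single-symbol rule, but that rule misses the main adult probe sets. Hba-x, the embryonic alpha-type globin, had signals of 15615, 15028 and 17834, and Hbb-bh1, an embryonic beta-type globin, had 15811, 13082 and 17594. Hba-a1 and Hba-a2 read 53.6 and 246 on probe sets of their own. A probe set annotated to both of them together, and so outside the rule, had 20937, 20790 and 23221 and was the second brightest of all probe sets. A probe set annotated to 4 adult beta-globin genes together had 3972, 3538 and 5335. No ratio of embryonic to adult alpha-globin is therefore given. The order of Hbb-y and Hbb-bh1 also depended on the probe set: the log2 ratio of 0.50 ± 0.18 became -0.24 without the _x_at and _s_at probe sets. Mb, the oxygen store of muscle, was at 1431 ± 204.

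**Figure D3:**
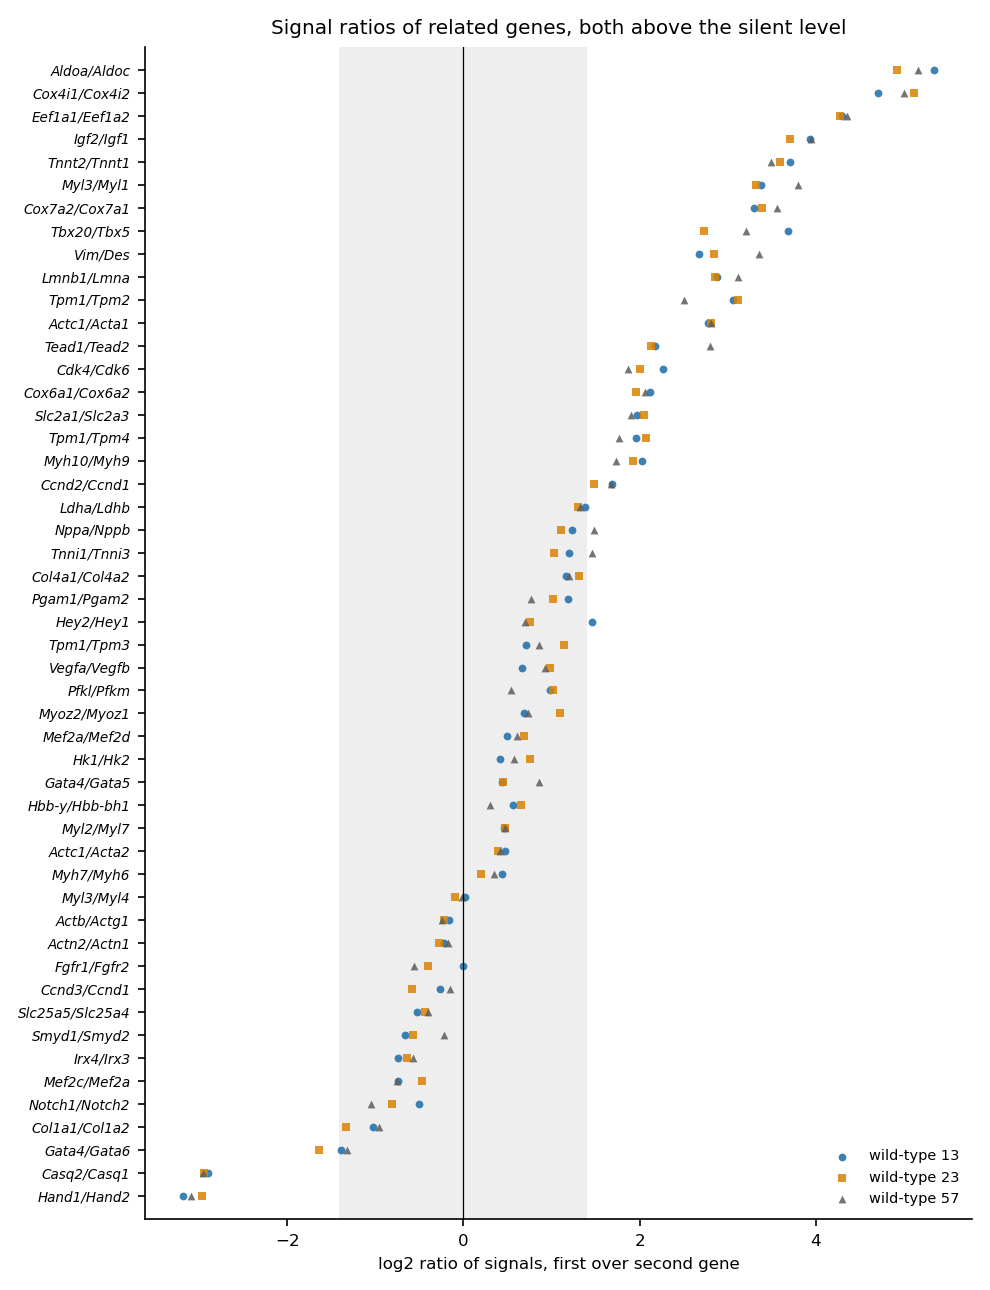
Log2 ratio of the signals of 2 related genes, first over second, on each of the 3 wild-type arrays, for the 50 pairs with both genes above the silent level. The grey band spans the median gap between probe sets of the same gene, 2.63-fold either way, and 28 pairs lie inside it.

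In energy metabolism the widely used form exceeded the adult muscle form in most of the pairs given here. Ldha, the lactate dehydrogenase subunit of glycolytic cells, had signals of 8616, 8315 and 7685 against 3305, 3371 and 3063 for Ldhb, the subunit of the adult heart, a log2 ratio of 1.33 ± 0.04. Slc2a1, the glucose transporter of the embryo, had 6980, 6337 and 6119, while the insulin-responsive Slc2a4 of adult muscle lay below the silent level at 174. Ckb, the brain creatine kinase, was at 2231 ± 295 and the muscle form Ckm was below the level at 238. The sarcomeric mitochondrial form Ckmt2 read above the ubiquitous Ckmt1, but neither was above the level. Pgam1 exceeded the muscle form Pgam2 by 1.99-fold, under the 2.63-fold median gap between probe sets of the same gene. The log2 ratio of Pfkl to the muscle form Pfkm was 0.85 and turned to -0.43 with probe sets averaged. Of cytochrome oxidase subunits, the form found in most tissues exceeded the heart and muscle form by 4.12-fold for Cox6a1 over Cox6a2, a log2 ratio of 2.04 that was 3.36 with probe sets averaged, and by 10.7-fold for Cox7a2 over Cox7a1. Cox4i1, the main form, exceeded Cox4i2, a form of lung and low oxygen, by 30.7-fold. The muscle forms Cox6a2 and Cox7a1 were themselves above the level, at 2736 ± 296 and 1103 ± 180. Aldoa and Aldoc, glycolytic aldolases, differed by 35.3-fold, a log2 ratio of 5.14 that was 5.95 with probe sets averaged, and all 5 Aldoa probe sets are of the _x_at kind. Slc25a4, the adenine nucleotide translocator of heart and muscle, was an exception: it read 12245 ± 763 against 8930 ± 630 for Slc25a5, but the mean of their probe sets turned the log2 ratio of -0.46 to 0.43.

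Within the nascent polypeptide complex, which binds new chains at the ribosome, Naca had signals of 8385, 8566 and 8286 and its partner Btf3 had 3731, 3270 and 2820. Naca also encodes skNAC, and the files do not say which of its transcripts the probe set reads. Smyd1, a muscle methyltransferase known to bind skNAC, had 1098, 1091 and 1107, and Smyd2 was the brighter at 1753, 1632 and 1290, a log2 ratio of Smyd1 to Smyd2 of -0.49 ± 0.24 that was -2.20 with probe sets averaged. Eef1a2, the muscle and neuron form of elongation factor 1 alpha, was at 1022 ± 58.9, 19.8-fold below Eef1a1.

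Transcription factors of the heart were mostly above the silent level, 26 of 30 beside 38.5% of all genes. Their signals were lower than those of the structural genes, with a median of 766. Tbx20, a T-box factor of the chamber wall, had 3521, 3615 and 3266, while Tbx5 had 259, 532 and 340, 9.22-fold lower. Hand2 had 3226, 3234 and 2834, and its relative Hand1, a marker of the left ventricle, had 340, 399 and 318, a log2 ratio of Hand1 to Hand2 of -3.08 ± 0.11. Each HAND gene kept 1 probe set above the level, and over all combinations of their probe sets the sign was the same in 3 of 6. With probe sets averaged the log2 ratio was -0.58, neither HAND gene was above the silent level and Tbx18 led the T-box factors. Gata6 exceeded Gata4 by 2.74-fold, at 1212 ± 150 and 431 ± 33.9. Nkx2-5, the homeobox factor of heart muscle, was at 798 ± 116. Hey2 and Irx4, factors of the ventricular chamber, were at 874 ± 229 and 349 ± 59.3. Isl1, a factor of the second heart field, was below the level, as were Tbx2, Heyl and Prdm16.

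Of growth signals, Igf2, a fetal growth factor expressed from the paternal allele, had signals of 11653, 11775 and 11452 and was 14.5-fold brighter than Igf1, a log2 ratio of 3.86. Its second probe set read far lower, and with probe sets averaged the log2 ratio was 2.23 and Igf2r led that family. Tgfb2 was at 745 ± 35.0 with Tgfb1 and Tgfb3 below the silent level. Bmp10, a growth factor of trabeculae, was at 31.4 on its 1 probe set. Cell cycle genes were bright: 20 of 22 genes of DNA replication and 20 of 22 of mitosis were above the level, beside 38.5% of all genes. They were led by Pcna at 6877 and Ube2c at 2974. Ccnd2 was 3.06-fold brighter than Ccnd1, a log2 ratio of 1.61 that was 0.60 with probe sets averaged. Cdk4 was 4.13-fold brighter than Cdk6, a log2 ratio of 2.05 that was 1.12 without _x_at and _s_at probe sets. Cdkn1c, an imprinted inhibitor of cyclin-dependent kinases, was at 8273. All 24 matrix genes were above the level, led by Fn1 at 6537, and Col1a2 was 2.15-fold brighter than Col1a1 although both encode chains of the same collagen, a log2 ratio of Col1a1 to Col1a2 of -1.10 that was -0.40 with probe sets averaged.

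Of 72 pairs of related genes listed, 68 were measured. In 50 both genes were above the silent level, in 17 only 1 was, and in 1 neither was. The first-named gene was the brighter in 53 of the 68. The sign of the log2 ratio was the same on all 3 wild-type arrays in 67 pairs, all but Myl3 and Myl4, and the count over all 6 arrays of the study was also 67. For pairs with both genes above the level, the median size of the ratio was 2.34-fold and its median SD over arrays was 0.16 on the log2 scale. Between probe sets the ratios held less well. When each gene's probe sets were averaged, 37 of the 68 log2 ratios moved by more than their SD over arrays with no change of sign and 12 changed sign. Of 29 such pairs with more than 1 combination of probe sets above the level, 16 had the same sign in every combination.

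Of the 52 families, 50 had a gene above the silent level. In 46 the same gene led on each of the 3 wild-type arrays. The phosphofructokinases, Iroquois factors, ERBB receptors and BMP ligands were the exceptions, and in each the leading genes changed places between arrays. Irx3 and Irx5 read 558 ± 86.0 and 514 ± 84.7, and Erbb3, Egfr and Erbb2 read 310 ± 21.5, 307 ± 38.4 and 273 ± 49.1. When each gene's probe sets were averaged, the same gene led in 32 of 50 families.

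Markers of the labelled tissue were present. All 12 cardiomyocyte markers were above the silent level, with a median signal of 5862. All 7 markers of the ventricular chamber were too, beside 38.5% of all genes. Of 8 atrial markers 6 were above it. They were Myl4, Myl7 and Nppa at 11624 to 15442, which the embryonic ventricle also makes, and Angpt1, Nr2f1 and Tbx5. Sln and Nr2f2 were not above it. Whether the samples held atrial tissue was not tested. Among epicardial markers 10 of 11 were above the level, from Tbx18 at 1201 down to Lrrn4, and Wt1 was included. Among endothelial and endocardial markers 8 of 13 were, led by Plvap at 1270, with Pecam1, Flt1, Tie1, Sox17 and Erg not. Cushion mesenchyme and fibroblast markers were above it in 9 of 11. Of 7 measured trabecular and conduction markers 5 were, namely Nppa, Nppb, Cited1, Irx3 and Tbx3, while Bmp10 and Gja5 were not. In whole tissue, fewer cells of a type and less RNA per cell cannot be told apart.

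Markers of other tissues were mostly at or below the silent level. None of 7 liver markers and none of 8 skeletal muscle markers was above it, beside 38.5% of all genes. The brightest of each were Apoa2 at 158 and Myod1 at 183. Of 9 neural markers only Nefl was above it, at 300, and of 8 foregut, lung and pharynx markers only Epcam, at 393. Of 11 macrophage markers Csf1r and Lyz2 were, while C1qa, C1qb and C1qc were not. Of 6 measured megakaryocyte and platelet markers 3 were above the level, namely Pf4, Ppbp and Gp1bb, with Pf4 at 1095. Gp5, Itga2b and Gp9 were not. Of 25 genes of germ cells and of adult glands, eye and skin, only Odf2 was above it, at 544.

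**Figure D4:**
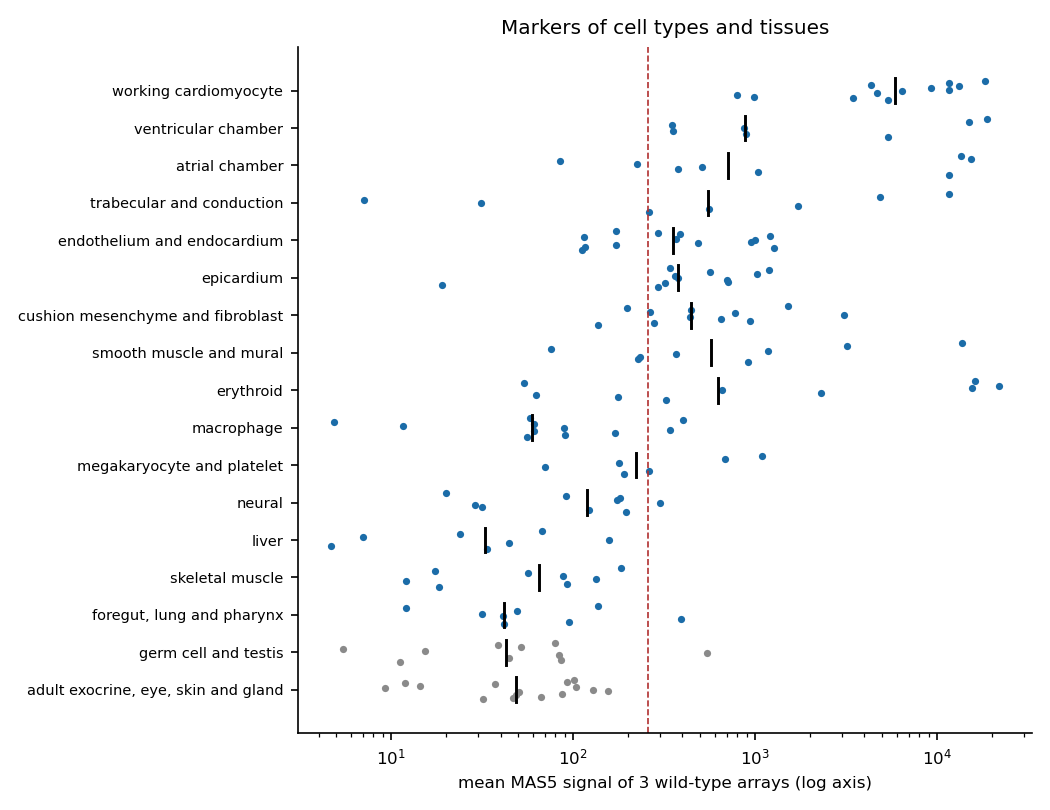
Mean MAS5 signal of 3 wild-type arrays (log axis) of each measured marker gene, by list; blue points are lists of cells and tissues near the heart, grey points are lists of distant tissues, black bars are medians and the dashed line is the silent level of 259. All 12 cardiomyocyte markers lie right of the line, and none of the liver and skeletal muscle markers do, beside 38.5% of all genes.

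The 3 wild-type arrays were then compared with each other. Each of the 7013 genes above the silent level was tested for a spread over the arrays larger than that of genes of like brightness. The gene's variance was set against limma's prior variance at its brightness, with Benjamini-Hochberg adjustment over all genes tested. At an adjusted p of 0.05, 7 genes passed, or 0.0998% of those tested: Xist, Zfp383, Mt2, Dr1, Irs1, Slc18a1 and Nes. The unadjusted p was under 0.05 for 389 of the 7013 genes, little more than that cut-off alone would pass with no excess spread. Leaving out an array leaves 1 difference per gene and moved the count to 46 without wild-type 13, to 36 without wild-type 23 and to 4 without wild-type 57.

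Xist, the RNA that coats the inactive X chromosome in female cells, had signals of 6275, 7481 and 466 in wild-type 13, 23 and 57, an adjusted p of 6.4e-08 in limma. The Y-linked genes Eif2s3y, Kdm5d and Uty lay below the silent level on average and went the opposite way. Eif2s3y read 2.10, 43.8 and 638, Kdm5d 55.7, 72.8 and 409, and Uty 59, 49 and 400. Wild-type 57 thus had the low Xist and the high Y-linked signals, and all 3 Xist probe sets were lowest there.

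The metallothioneins, which bind zinc and copper, were low in wild-type 23. Mt2 had signals of 1169, 389 and 1399, a 3.49-fold range with an adjusted p of 0.0025 in limma. Mt1 had 621, 255 and 685, with an adjusted p of 0.058. The red cell genes had the same low array. All 6 erythroid markers above the silent level, Hbb-y, Hba-x, Hbb-bh1, Slc4a1, Alas2 and Klf1, were lowest in wild-type 23, against 29.4% of all genes above the level. Alas2, the first enzyme of haem synthesis in red cells, read 653, 406 and 926, and Klf1, a red cell transcription factor, read 403, 157 and 419, both short of the threshold with adjusted p of 0.16 and 0.17 in limma. The probe sets shared by adult globin genes, which the gene rule leaves out, were lowest there as well. The share of red cells in each sample was not measured.

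Of the other genes that passed, Zfp383 and Nes had a second probe set with a smaller range. Zfp383 had 1497, 5430 and 4691 on its brightest probe set and 684, 719 and 653 on the next. Dr1, a repressor of general transcription, had 880, 996 and 326, and its second probe set lay below the silent level on every array. Nes, an intermediate filament of progenitor cells, had 535, 474 and 154 on the brightest and 296, 311 and 224 on the next. Irs1, an adaptor of the insulin receptor, had 1956, 4227 and 4241 and has 1 probe set. Slc18a1, a transporter of monoamines into vesicles, had 142, 444 and 521.

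Groups of genes also leaned one way by array with small shifts, part of which went with the array scaling. Of the 75 respiratory chain and ATP synthase genes above the level, 68 were lowest in wild-type 57, as were 36 of 45 ribosomal protein genes and 34 of 46 contractile genes, against 44.2% of all genes above the level. The median deviation of the respiratory genes in wild-type 57 was -0.14 on the log2 scale, beside -0.03 for all genes above the level. After quantile normalization of the 3 arrays, the counts lowest in wild-type 57 were 48 of 75, 24 of 45 and 21 of 46, against 37.1% of all genes, and the median deviation of the respiratory genes was -0.05. Rpl38, Rpl7a and Rps14 were among the bright ribosomal protein genes that were not lowest there. Of the 20 listed genes of DNA replication above the level, 17 were highest in wild-type 13 and 14 after quantile normalization, against 41.1% and 33.9% of all genes. The 6 erythroid markers were lowest in wild-type 23 under both scalings. These groups were not tested.

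**Figure D5:**
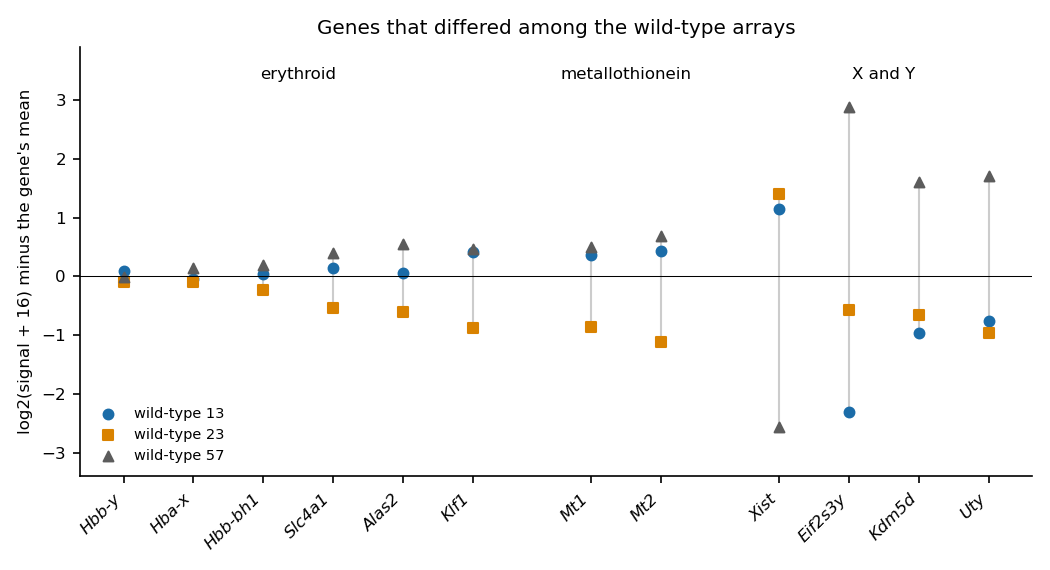
Deviation of log2(signal + 16) from the gene's own mean on each of the 3 wild-type arrays, for the 6 erythroid markers above the silent level, both metallothioneins and 4 X- or Y-linked genes. The erythroid and metallothionein genes are lowest in wild-type 23, and Xist is lowest and the Y-linked genes highest in wild-type 57; the metallothioneins and sex-linked genes were chosen for the plot after their values were seen.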

How the data were processed

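The deposited table holds 1 intensity per probe set and array, on a linear scale, which the authors derived by MAS5 in GCOS, as the submitters' processing notes state. Their versions, the scaling target and any detection calls were not given in the sources used here. Each array's 2% trimmed mean was 250 when checked on the file. Probe sets were named from the platform annotation: 34945 had 1 symbol, 932 several and 9160 none, and 64 control probe sets were dropped. Signals were taken as log2(signal + 16), averaged over the 3 wild-type arrays, and each gene took its brightest probe set. The members, families, pairs and lists were chosen with earlier results of these data known. Named genes were the 30 brightest, the family and pair members, the list extremes, and the genes with excess spread.

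Spread among arrays was tested in limma 3.58.1 under R 4.3.3: each gene's variance with 2 degrees of freedom was set against a trended, robustly fitted prior in a one-sided F test with Benjamini-Hochberg adjustment, tested on simulated data beforehand. Other steps ran in Python 3.11.15 with pandas 2.3.3. Pseudocounts of 1 and 64, quantile normalization, averaging of each gene's probe sets, exclusion of _x_at and _s_at probe sets, other silent levels, filters and priors, and each array left out were tried as alternatives. Arrays hold no counts, so precision is limited by their number. Promoters came from the RefSeq table for GRCm38.p6, matched for 14452 of 18193 genes. Motif shares are given only for groups with promoters for at least 80% of their genes. Protein sequences were not used here.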

Additional observations from a re-analysis of the deposited data

How the results depend on the processing

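The count of genes above the silent level was 9101 and 5720 with the 90th and 99th percentile of the receptor genes in place of the 95th, and 5148 with each gene's probe sets averaged. With probe sets averaged, the 100 brightest genes held 16.6% of the summed signal in place of 12.6%, and 32 of 50 families kept their lead. That choice turned the sign of 12 of 68 ratios, to log2 values of 2.47 for Myl3/Myl4, -0.79 for Tpm1/Tpm4, 2.90 for Actn2/Actn1, -0.25 for Cacna1h/Cacna1g, -0.89 for Hk1/Hk2, -0.43 for Pfkl/Pfkm, 0.43 for Slc25a5/Slc25a4, -1.005 for Gata4/Gata5, 0.24 for Mef2c/Mef2a, -0.44 for Vegfa/Vegfb, 0.20 for Fgfr1/Fgfr2 and -0.11 for Col4a1/Col4a2. Without _x_at and _s_at probe sets 2 ratios turned, Hbb-y/Hbb-bh1 to -0.24 and Fgfr1/Fgfr2 to 0.046. No ratio turned under either pseudocount, quantile normalization or the loss of any 1 array. The count of 7 genes with excess spread was 4 after quantile normalization, 1 with no filter on dim genes, 1 with a prior without a trend, 4 with a prior without robust estimation and 13 at a threshold of 0.1, and ran from 4 to 46 with 1 array left out. The causes were not tested. No paired analysis was made, since the groups share no replicate numbers and the sample labels used here name no litter.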

Other observations

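Probe sets annotated to several genes hold much of the bright signal that a ranking by single symbols leaves out. Of the 100 brightest probe sets, 38 carried several symbols and 12 none. Many pair a ribosomal protein gene with its processed copies. The probe set annotated to Rps6 and Rps6-ps4 together had signals of 19323, 18898 and 18297 in wild-type 13, 23 and 57, whereas the single-symbol probe set of Rps6 read 344. A probe set annotated to Gapdh and 4 related sequences had 17039, 18629 and 16839. Of the 4 probe sets annotated to several adult globin genes, each was lowest in wild-type 23. One annotated to Hba-a1 and Hba-a2 read 1913, 1228 and 1941, while a brighter one for the same genes read 20937, 20790 and 23221, so the gap to wild-type 23 was wider on the dimmer probe set.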
